A study of Mus musculus with 5 samples.

Results

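Transcripts of pyruvate oxidation, the tricarboxylic acid (TCA) cycle and the reactions that fill or drain it were followed across 5 RNA-seq libraries of E14, a mouse embryonic stem cell line. The set holds 38 genes, taken by name as enzymes and regulators of these steps, out of 21930 genes summed from the deposited table. All 38 were found there, in 43 RefSeq transcripts, and 37 reached a mean of at least 1 FPKM (fragments scaled by transcript length and by library depth) over the 5 libraries. Me3, a mitochondrial malic enzyme, was listed at 0 in every library and enters no comparison.

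The libraries came from normal E14 cells and from E14 cells labelled as overexpressing Hk2, the hexokinase that phosphorylates glucose, together with Pkm2, the M2 form of pyruvate kinase. Each cell type was sampled in culture with leukemia inhibitory factor (LIF), the cytokine that keeps mouse embryonic stem cells undifferentiated, and in culture where LIF was absent for 24 hours and then added back. A library of overexpressing cells kept 40 days without LIF completes the series. All labels give the strain as C57BL/6 and the developmental stage as E14. The labels say nothing of how the genes were introduced or whether the cells are 1 clone. Each group is 1 library, so a difference between 2 libraries has no replicate check and was counted without a test.

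Pyruvate made by glycolysis enters mitochondria and is oxidised to acetyl-CoA by the pyruvate dehydrogenase complex, which pyruvate dehydrogenase kinases switch off and phosphatases switch on. The TCA cycle then oxidises the acetyl group and passes electrons to the respiratory chain. Anaplerotic enzymes such as pyruvate carboxylase and glutamate dehydrogenase refill the cycle, while malic enzymes and phosphoenolpyruvate carboxykinase draw from it. Mouse embryonic stem cells are known for high glycolytic flux, and also for use of glutamine-derived 2-oxoglutarate by dioxygenases that act on chromatin.

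Facts of the whole series that bear on the values are these. The steps between the lowest values of single-transcript genes placed library depth at an estimated 37250000 to 43000000 fragments. For Hk2 the normal and overexpressing libraries read 76.2 and 98.6 FPKM in LIF, and 49.7 and 59.0 FPKM after withdrawal. For Pkm the same pairs read 510 and 567 FPKM, then 611 and 564 FPKM. Pkm is summed per gene here, so its M2 form was not read apart. The 40 day library, labelled as overexpressing too, read 29.0 FPKM for Hk2 and 495 FPKM for Pkm, the lowest of all 5 for each. Pkm was thus lower in the labelled library after withdrawal, and at 40 days both genes were below both normal libraries. Overexpressing cells below means the libraries so labelled. All 8 stem cell markers examined were above 1 FPKM in every library, and their summed FPKM ranged from 2876 to 3407 in 4 libraries and stood at 1957 at 40 days. Most of this sum came from Pou5f1 and Dppa5a, and single markers differed within those 4 libraries. Nanog read 150 and 183 FPKM in the normal and overexpressing libraries with LIF, against 59.3 and 54.5 FPKM after withdrawal. Esrrb read 157 and 139 FPKM, against 55.0 and 40.3 FPKM, and Zfp42 266 and 278 FPKM, against 118 and 128 FPKM. The neural markers summed to 36.9 and 53.5 FPKM with LIF, to 4.83 and 6.88 FPKM after withdrawal and to 26.7 FPKM at 40 days, mostly from Tubb3, which was listed at 0 in normal cells after withdrawal. Mesoderm markers summed to 1.24 to 4.50 FPKM. The part of these marker differences in the withdrawal comparison was not tested. Of 8 markers of primitive and visceral endoderm, 6 were at or above 1 FPKM at 40 days. Their summed FPKM was 143 there and 2.91 to 5.06 in the other libraries, with Afp listed at 0 in all 5. Dab2 at 52.0 FPKM and Cubn at 40.1 FPKM were the largest at 40 days. Sox17 was listed at 0 there and read at most 0.0672 FPKM elsewhere. The 8 fibroblast and feeder markers summed to 2.63, 3.95, 3.11, 6.10 and 12.0 FPKM, in the order normal and overexpressing with LIF, normal and overexpressing after withdrawal, and 40 days. The collagens Col1a1, Col1a2 and Col3a1, with Dcn and Lum, were under 1 FPKM in all 5. Thy1 read 4.32 and 4.26 FPKM in overexpressing cells after withdrawal and at 40 days and 0.792 to 2.54 FPKM elsewhere, and Pdgfra 4.20 FPKM at 40 days and at most 0.110 FPKM elsewhere. In bulk RNA, fewer cells of a type and less RNA per cell cannot be told apart. The part of endoderm and fibroblast marker transcripts in the differences at 40 days was not tested.

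RefSeq start sites gave 44 promoter windows for 34 of the 38 genes. Idh3a, Pdp1, Sdhc and Me2 had no entry. Each window covers the 250 bases before the start, taken from RefSeq sequence of GRCm38.p6 and placed on mm9 by exact match. Windows of 4 genes are shown as examples. These genes carry results below and the windows shown overlap no annotated exon, which also holds for windows of other members. Pdha1 and Pck2 differed at least 2-fold between libraries, Pdk1 was among the steadiest members, and Got1 is the member whose window holds the letters bound by oestrogen-related receptors. Capitals mark these letters (AAGGTCA, or the reverse complement) and the hypoxia response core (ACGTG or GCGTG, either strand).

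Pdha1, chrX:156576363-156576612, minus strand: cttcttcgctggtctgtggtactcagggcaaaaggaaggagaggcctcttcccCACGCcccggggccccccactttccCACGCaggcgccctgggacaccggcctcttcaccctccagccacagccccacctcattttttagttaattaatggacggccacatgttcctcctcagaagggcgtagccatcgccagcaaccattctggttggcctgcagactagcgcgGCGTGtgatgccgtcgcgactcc

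Pdk1, chr2:71711031-71711280, plus strand: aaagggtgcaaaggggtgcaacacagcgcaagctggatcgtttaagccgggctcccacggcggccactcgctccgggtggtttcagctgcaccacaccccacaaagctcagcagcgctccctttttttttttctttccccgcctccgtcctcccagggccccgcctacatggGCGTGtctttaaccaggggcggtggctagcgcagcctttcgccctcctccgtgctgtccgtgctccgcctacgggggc

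Pck2, chr14:56158853-56159102, plus strand: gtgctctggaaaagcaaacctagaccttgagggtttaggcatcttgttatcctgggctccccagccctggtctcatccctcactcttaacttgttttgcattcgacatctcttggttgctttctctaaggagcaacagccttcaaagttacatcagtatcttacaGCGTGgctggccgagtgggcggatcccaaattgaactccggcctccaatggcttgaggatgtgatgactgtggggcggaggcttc

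Got1, chr19:43599096-43599345, minus strand: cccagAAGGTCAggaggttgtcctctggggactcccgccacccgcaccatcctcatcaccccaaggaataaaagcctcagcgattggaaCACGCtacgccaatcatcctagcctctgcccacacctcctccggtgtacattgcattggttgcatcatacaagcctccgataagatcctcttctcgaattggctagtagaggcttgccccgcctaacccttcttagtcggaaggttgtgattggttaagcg

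The hypoxia response core occurred in 30 of the 44 member windows (68.2%), and in 38.6% of 32851 RefSeq promoter windows of the same length. It lies in all 4 windows above, 3 times in that of Pdha1, but this reflects which windows were shown. Among other windows off annotated exons, those of Dlat, Dld, Cs, Dlst and Suclg2 do not hold it, while those of Pdhb and Fh1 do. Another window of Pdk1, which lies in annotated exons, does not hold it. The receptor letters occurred in 1 member window (2.27%) and in 4.08% of all windows. The core of nuclear respiratory factor 1 (GCGCANGCG, either strand), a regulator of mitochondrial genes, occurred in 5 member windows (11.4%), of Ogdh, Sucla2, Sdha and Sdhd, and in 5.16% of all. The STAT letters TTCCNGGAA, bound by the factor that LIF activates, occurred in 0 member windows and in 0.913% of all windows. These counts describe letters only, and windows of 1 gene can overlap. The background windows come from all RefSeq genes, expressed here or not, and were not matched for base composition, so enrichment was not tested.

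As a set, the genes were expressed at very different levels and varied unequally between libraries. Their summed FPKM was 1964 and 1774 with LIF in normal and overexpressing cells, 1871 and 1795 after withdrawal, and 1645 at 40 days. As a share of the FPKM of all genes this was 0.675%, 0.664%, 0.653%, 0.664% and 0.615% in that order. After withdrawal the share was thus higher in overexpressing cells, while the sum was lower. Of 37 genes, 19 differed less than 1.5-fold between their highest and lowest library, against a background of 26.7% of all 9590 genes tested. That background was not matched to the members for level, so whether they are steadier than genes of like level was not tested. These 19 include all 4 subunits of succinate dehydrogenase, both malate dehydrogenases, fumarase (Fh1), citrate synthase (Cs), Pdk1 and the carboxylase Pcx. Another 14 differed at least 2-fold, 10 of them at least 3-fold. The share of all genes past these 2 limits was not taken, so these counts only describe the members. The plot of levels by library shows the widest ranges in Me1, Me2 and Pck2, and ranges of 3-fold to 4-fold in Idh3a, Idh3b, Got2, Aco1, Ogdh, Suclg2 and Pdp1.

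**Figure D1:**
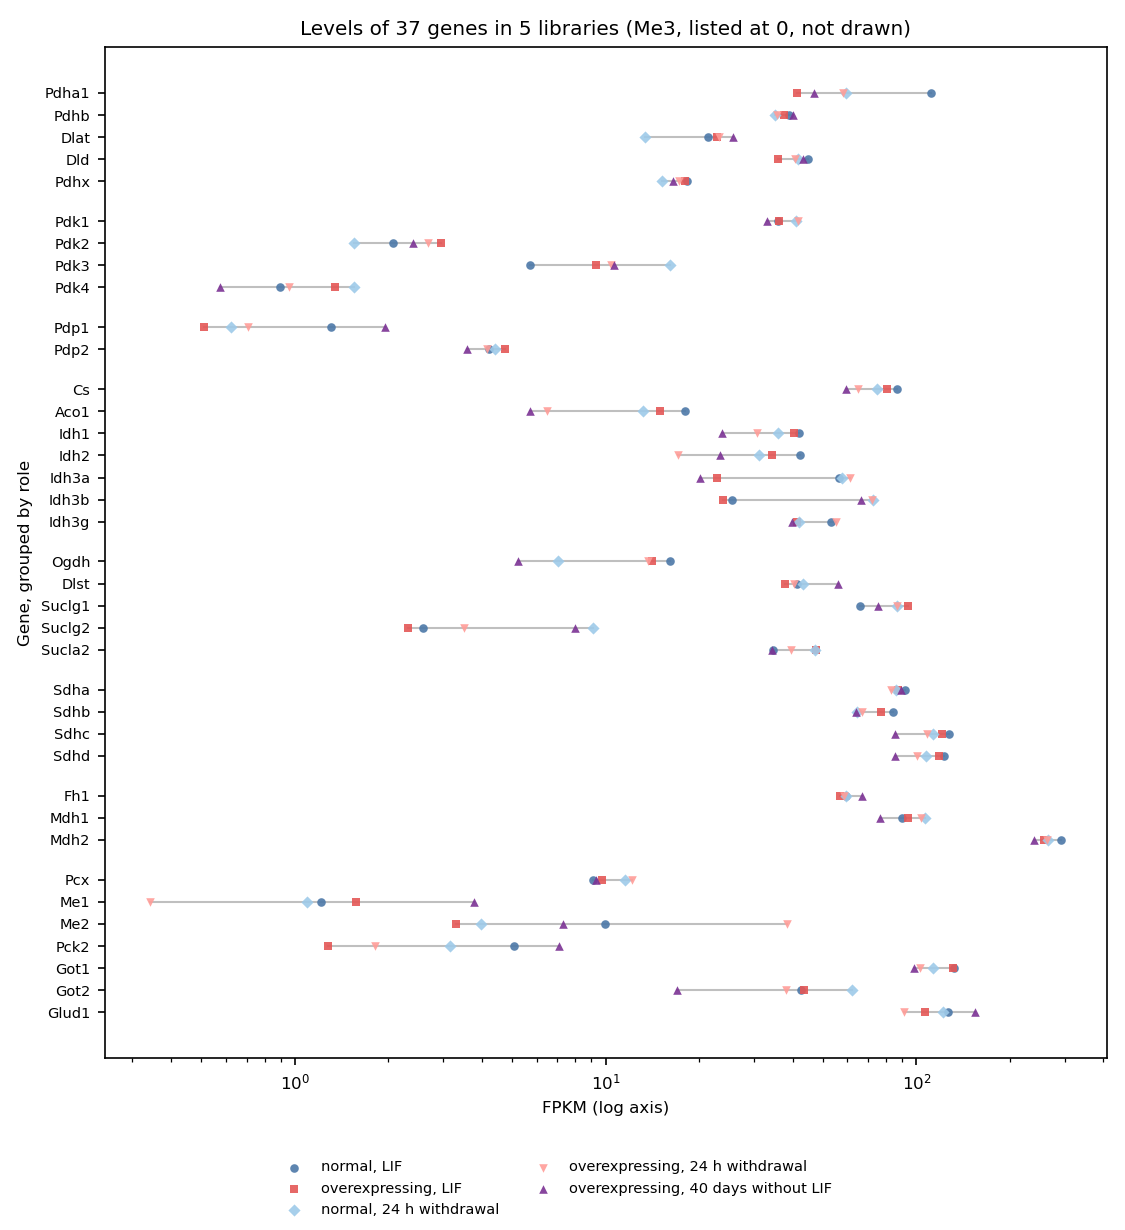
FPKM (log axis) of 37 genes in each of 5 libraries, with genes grouped by role and a grey line from the lowest to the highest library. Mdh2 is highest throughout at 239 to 293 FPKM, while Me2 spans 3.31 to 38.4 FPKM and Me1 0.343 to 3.77 FPKM.

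Fragment counts behind the low members were estimated from FPKM, annotated transcript length and the depth above. Me1 at its lowest rested on about 40 fragments, Pdk4 on 82, Pdp1 on 89, Pdk2 on 121 and Pck2 on 179. Idh2 at its lowest rested on about 1052 and Pdhx on 1337. These counts speak of counting error only. Aligned to mm9, the transcripts of 5 members also matched another place in the genome over at least 300 bases at 95% identity or more. Got2 had a copy of 98.9% identity over 92.5% of its length, Suclg2 of 98.9% over 66.2%, Pdhb of 97.0% over 97.4%, Me1 of 97.7% over 61.2% and Glud1 of 97.2% over 35.1%. The sources used here do not give how fragments shared by such copies were assigned, and values of these 5 genes are uncertain. Idh3a, Idh3b, Ogdh and Me2 had no second place. For Pdha1, Pdk3, Idh3a, Idh3b, Ogdh and Me2, which stood at distinct levels in some libraries, a faulty estimate of FPKM cannot be told apart from a difference in RNA with 1 library a group.

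The pyruvate dehydrogenase complex showed steady levels in 3 of its 5 subunits and a single high library for its catalytic alpha subunit. Pdha1, which carries the sites that the kinases phosphorylate, lies on chromosome X from 156560141 to 156576345, minus strand (mm9, as are all gene positions here). It reached 111 FPKM in normal LIF culture, and 41.4, 59.4, 57.9 and 46.7 FPKM in the order overexpressing with LIF, normal after withdrawal, overexpressing after withdrawal and 40 days. Normal cells with LIF thus stood apart, and the other 4 libraries lay between 41.4 and 59.4 FPKM. The difference of the labelled cell types was -1.40 with LIF and -0.04 after withdrawal, on the scale of log2(FPKM + 1). Transcripts of its partner, the beta subunit Pdhb, stayed between 35.1 and 40.0 FPKM. The E3 subunit Dld, shared with oxoglutarate dehydrogenase, lay between 35.8 and 44.8 FPKM, and the E3-binding protein Pdhx between 15.2 and 18.3 FPKM. Dlat, the E2 acetyltransferase core, stood at 13.4 FPKM in normal cells after withdrawal and between 21.4 and 25.7 FPKM in the other 4.

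Of the 4 kinases that inactivate the complex, Pdk1 made up most of the transcripts. Pdk1, on chromosome 2 from 71711281 to 71741915, reached 35.8 and 36.3 FPKM with LIF in normal and overexpressing cells, 40.9 and 41.7 FPKM after withdrawal, and 33.0 FPKM at 40 days. The 2 libraries after withdrawal were the highest and the 40 day library the lowest, all within a factor of 1.27. Pdk1 took 80.5% of summed Pdk FPKM in normal cells with LIF and between 68.1% and 74.8% in the other libraries.

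Pdk3, an isozyme that pyruvate inhibits little, filled most of the remainder. It read 5.70 FPKM in normal LIF culture, 9.34 FPKM in overexpressing cells with LIF, 16.1 and 10.4 FPKM after withdrawal in normal and overexpressing cells, and 10.7 FPKM at 40 days. The 2 normal libraries were thus its lowest and its highest, a 2.82-fold difference, with the 3 overexpressing libraries close together between them. Pdk2, a widely expressed isozyme, lay between 1.55 and 2.96 FPKM and was higher in the overexpressing library of each culture. Pdk4, the isozyme induced by fasting in many tissues, lay between 0.577 and 1.56 FPKM.

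The phosphatases that reactivate the complex were low. Pdp2 stood at 4.20, 4.75, 4.41, 4.16 and 3.58 FPKM in the library order used for Pdha1, starting with normal cells with LIF. Pdp1, the calcium-sensitive isozyme, summed over 3 transcripts, stood at 1.31, 0.509, 0.624, 0.710 and 1.95 FPKM in that order. Its 40 day library was the highest and Pdp2 had its lowest there, so the Pdp1 share of phosphatase FPKM was 35.3% at 40 days and 9.68% to 23.7% elsewhere. Of its 3 transcripts, 2 were listed at 0 in at least 1 library, which can be a failed estimate.

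**Figure D2:**
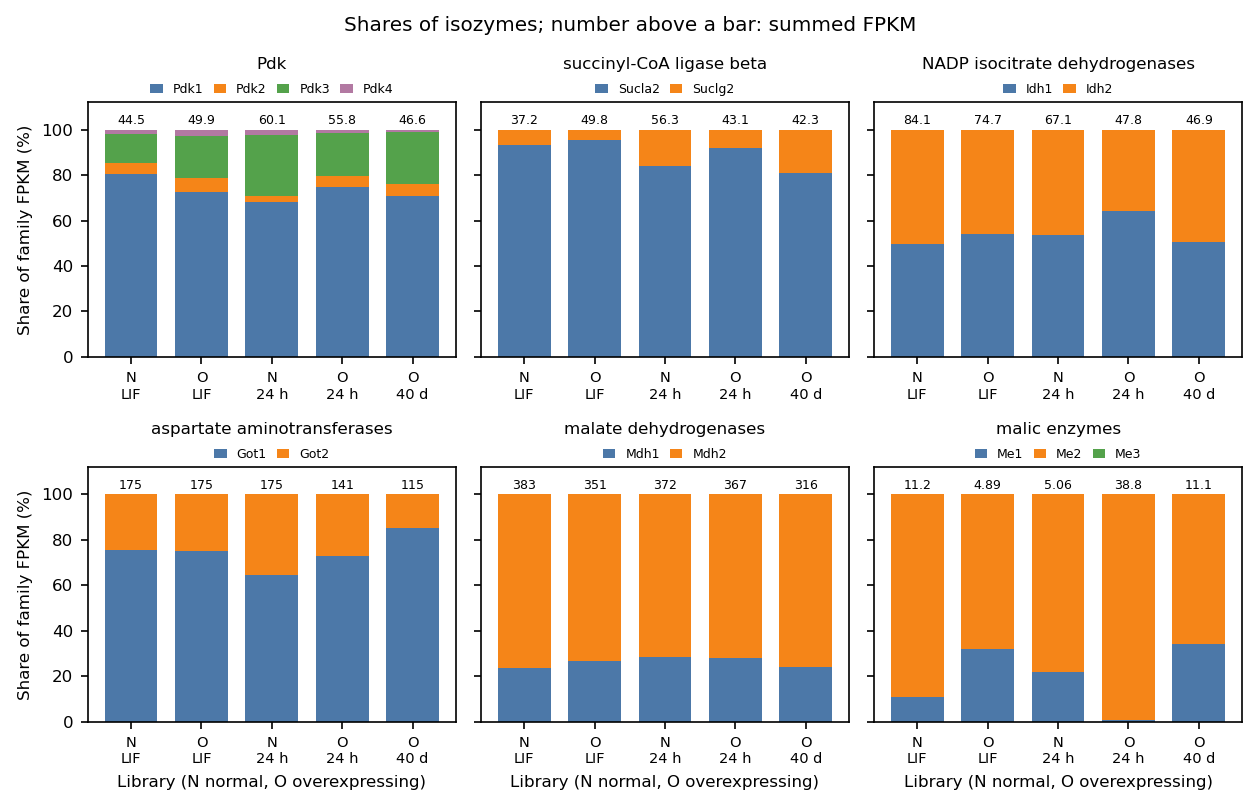
Share of each isozyme in the summed FPKM of its family, in percent, for 6 families and 5 libraries, with the summed FPKM printed above each bar. Pdk1 takes 68.1% to 80.5% of kinase FPKM, Sucla2 81.1% to 95.4% of the succinyl-CoA ligase beta subunits, and Me2 65.8% to 99.1% of the malic enzymes.

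At the entry of the cycle, Cs, which condenses acetyl-CoA with oxaloacetate, stood at 86.8, 80.5, 74.5, 64.9 and 59.5 FPKM in the same order. It was lower after withdrawal than with LIF in both cell types and lowest at 40 days, by less than 1.46-fold in all. Aco1 encodes the cytosolic aconitase that also acts as an iron-regulatory RNA-binding protein, and lies on chromosome 4 from 40090114 to 40146042. It stood at 18.0, 15.0, 13.2, 6.50 and 5.69 FPKM. The 2 low libraries were overexpressing cells after withdrawal and at 40 days, which differed from overexpressing cells with LIF by -1.09 and -1.26 on the log2(FPKM + 1) scale.

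The NADP-dependent isocitrate dehydrogenases were also lower after withdrawal and at 40 days than with LIF in the same cells. Cytosolic Idh1, summed over 2 transcripts, read 41.9, 40.3, 35.8, 30.7 and 23.7 FPKM. The minor transcript was listed at 0 in normal cells with LIF and read 4.18 to 6.00 FPKM elsewhere. Mitochondrial Idh2 stood at 42.2, 34.4, 31.2, 17.1 and 23.3 FPKM in the order starting with normal cells with LIF. Together they summed to 84.1, 74.7, 67.1, 47.8 and 46.9 FPKM. Overexpressing cells after withdrawal held the lowest Idh2, and there Idh1 made up 64.2% of the pair against 49.9% to 53.9% elsewhere.

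The NAD-dependent enzyme Idh3, which works inside the cycle, is built from catalytic alpha subunits and from beta and gamma subunits. Its transcripts did not vary together. Idh3b, on chromosome 2 from 130105045 to 130110283, read 25.6 and 23.9 FPKM in LIF culture, 72.7 and 71.8 FPKM once LIF had been withdrawn, and 66.3 FPKM at 40 days. The withdrawal difference was 1.47 in normal and 1.55 in overexpressing cells. Idh3b was the single member at least 2-fold different the same way in both cell types, against a background of 3.34% of all genes. Idh3a, on chromosome 9 from 54434288 to 54452468, stood at 56.4, 22.8, 57.8, 61.3 and 20.1 FPKM. Its values lay at 2 levels, with overexpressing cells with LIF and at 40 days low and the other 3 libraries high. Idh3g stayed between 39.8 and 55.2 FPKM. The highest subunit exceeded the lowest by 1.30-fold in overexpressing cells after withdrawal and by 3.30-fold at 40 days. Idh3b shares 5 exon bases with Nop56 on the opposite strand, which stood between 126 and 155 FPKM.

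Ogdh, the E1 subunit of oxoglutarate dehydrogenase, stood at 16.1, 14.1, 7.05, 13.7 and 5.21 FPKM. Normal cells after withdrawal and overexpressing cells at 40 days were low, and the other 3 libraries lay within 13.7 to 16.1 FPKM. Dlst, its E2 succinyltransferase, did not share this pattern and stood between 37.8 and 43.3 FPKM in 4 libraries and at 56.0 FPKM at 40 days. Suclg1, the alpha subunit common to both succinyl-CoA ligases, lay between 65.7 and 94.2 FPKM. Its partner Sucla2, which makes the ATP-forming enzyme, lay between 34.3 and 47.5 FPKM.

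Suclg2, the beta subunit of the GTP-forming ligase, was the minor partner in every library. Its values were 2.59, 2.31, 9.09, 3.49 and 7.99 FPKM, in the library order used for Cs. Normal cells after withdrawal stood 3.51-fold above normal cells with LIF. Its copy on chromosome X, described above, makes these values uncertain.

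Succinate dehydrogenase, which is also complex II of the respiratory chain, had all 4 subunits within 1.5-fold over the libraries. Its flavoprotein Sdha stood at 92.0, 87.5, 86.3, 83.0 and 89.2 FPKM, a span of 1.11-fold. The iron-sulfur subunit Sdhb lay between 64.1 and 83.8 FPKM, and the membrane anchors Sdhc and Sdhd between 85.5 and 127 FPKM and between 85.5 and 123 FPKM. Within a library the highest of the 4 subunits exceeded the lowest by 1.39-fold to 1.75-fold. Their summed FPKM was 426 and 404 with LIF, 372 and 358 after withdrawal and 324 at 40 days. Both anchors and the sum were thus lowest at 40 days. As a share of the FPKM of all genes the sum was 0.146% and 0.151% with LIF in normal and overexpressing cells. After withdrawal it was 0.130% and 0.132%, and at 40 days 0.121%, so by share the overexpressing library was the higher in each culture. All 4 subunits were lower after withdrawal than with LIF in both cell types, also under quantile normalization and median-ratio scaling, with differences from -0.37 to -0.08 on the log2(FPKM + 1) scale.

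Fumarase and the malate dehydrogenases varied little in level. Fh1 lay between 56.6 and 66.9 FPKM. Mdh2, the mitochondrial enzyme that regenerates oxaloacetate, was the most abundant member at 293, 257, 266, 263 and 239 FPKM. Cytosolic Mdh1, a part of the malate-aspartate shuttle, read 89.9, 93.9, 107, 103 and 76.4 FPKM, highest in the 2 libraries after withdrawal. Among anaplerotic enzymes, Pcx, which carboxylates pyruvate to oxaloacetate, lay between 9.11 and 12.2 FPKM. All of this came from 1 of its 2 transcripts, and the other was listed at 0 in every library. Glud1, which turns glutamate into 2-oxoglutarate, stood at 126, 106, 122, 91.4 and 155 FPKM, lower in the overexpressing library of each culture and highest at 40 days.

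On the log2(FPKM + 1) scale the largest differences of the set were those of Me2, the mitochondrial NAD-dependent malic enzyme, on chromosome 18 from 73929694 to 73975046. Normal and overexpressing cells held 9.97 and 3.31 FPKM of it in LIF culture and 3.97 and 38.4 FPKM after withdrawal, and the 40 day library held 7.28 FPKM. A single library, overexpressing cells after withdrawal, stood far above the other 4, which lay between 3.31 and 9.97 FPKM. Overexpressing cells were 3.01-fold lower than normal cells with LIF and 9.69-fold higher after withdrawal. Cytosolic Me1, which makes NADPH, stood at 1.21, 1.57, 1.10, 0.343 and 3.77 FPKM, with its lowest value in the library where Me2 was highest. In plain FPKM the 40 day library exceeded that value by more than the 9.69-fold of Me2 and by less than the 11.6-fold of Me2 between overexpressing cells with LIF and after withdrawal. The low Me1 value rests on about 40 fragments. Me1 is 1 of the genes with a near-identical copy.

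Pck2, the mitochondrial phosphoenolpyruvate carboxykinase that draws oxaloacetate toward sugar and serine synthesis, lies on chromosome 14 from 56159103 to 56168854. Its values were 5.08, 1.28, 3.16, 1.81 and 7.06 FPKM in the same library order. Overexpressing cells were lower than normal cells in both cultures, by -1.41 and -0.57 on the log2(FPKM + 1) scale, and the 40 day library was the highest. Pck1, the cytosolic isozyme, was listed at 0 in 4 libraries and stood at 0.0639 FPKM at 40 days. Of the aspartate aminotransferases, cytosolic Got1 stood at 133, 132, 113, 103 and 98.1 FPKM. Mitochondrial Got2 stood at 42.6, 43.5, 61.9, 38.1 and 16.9 FPKM, so its 40 day library was lowest and its share of the pair was 14.7% there and 24.3% to 35.4% elsewhere.

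The comparison of cell types sets the libraries labelled as overexpressing Hk2 and Pkm2 against the normal ones. Its direction rests on that label, which the Hk2 and gene-level Pkm values above do not bear out in every library. With LIF, 0 of 37 members were at least 2-fold higher in the overexpressing library and 4 were lower, against 4.11% and 5.32% of all genes. The 4 were Pdha1 (-1.40), Idh3a (-1.27), Me2 (-1.35) and Pck2 (-1.41), given as differences of log2(FPKM + 1). The median of the members was -0.07 and that of all genes -0.04. After withdrawal 1 member, Me2 (2.99), was at least 2-fold higher and 1, Suclg2 (-1.17), lower, against 4.19% and 5.18% of all genes. The members' median was -0.04 and that of all genes -0.02. With a pseudocount of 0.1 FPKM in place of 1, 4 members were 2-fold different after withdrawal, with Aco1 and Me1 joining as lower.

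Across the 2 cultures, whose cell type differences share no library, 0 of 37 members differed at least 2-fold the same way, against 1.84% of all genes. Me2 was the single member at least 2-fold different in opposite ways, against 1.06%. Lower levels in overexpressing cells in both cultures were seen for 17 members, against 35.4% of all genes, and higher levels for 4 (Dlat, Pdk1, Pdk2 and Pcx), against 26.6%. The first count was 9 with quantile normalization and 13 with median-ratio scaling, and the second 8 and 6. Limma, fitted to the 4 libraries of the 2 cell types and 2 cultures, called 0 members and 0% of all genes for cell type at an adjusted p of 0.05. Unadjusted p was under 0.05 for 1 member, Glud1, against 9.57% of all genes. Glud1 had an estimate of -0.33 ± 0.087 (SE, limma, 4 libraries) with an adjusted p of 0.520, and Pck2 of -0.99 ± 0.31 with an adjusted p of 0.524. The residual of this fit has 1 degree of freedom and holds the interaction of cell type and culture, so p-values measure agreement over these cultures only.

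**Figure D3:**
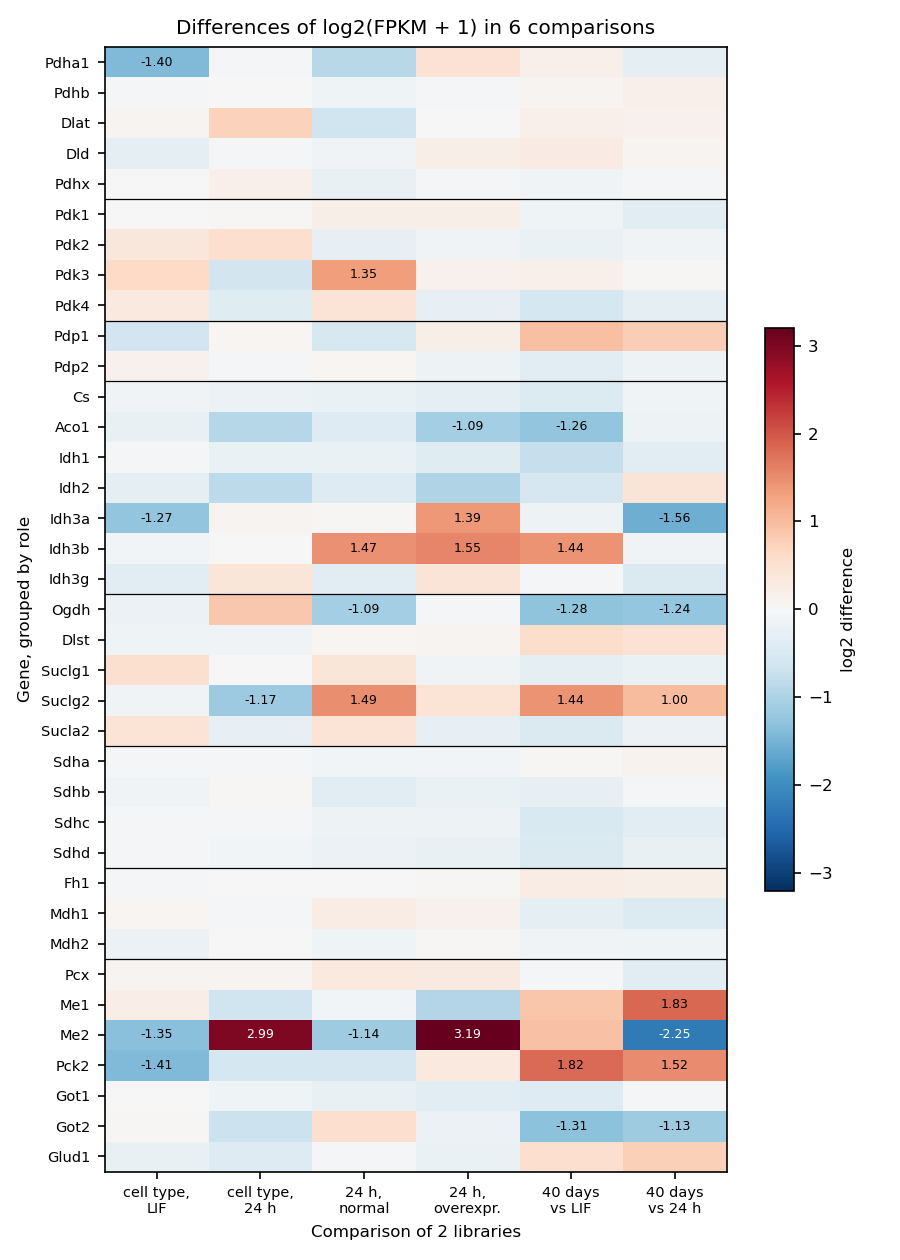
Differences of log2(FPKM + 1) for 37 genes (rows, by role) in 6 comparisons of 2 libraries (columns), red for higher and blue for lower, with the value printed where it reaches 1 in size. Me2 has the largest values, 2.99 and 3.19, and Idh3b is near 1.5 in both withdrawal columns.

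The withdrawal comparison asks what 24 hours without LIF, followed by LIF, does to the same genes. In normal cells 3 members were at least 2-fold higher and 2 lower, against 4.62% and 5.51% of all genes. Higher were Suclg2 (1.49), Idh3b (1.47) and Pdk3 (1.35), and lower were Me2 (-1.14) and Ogdh (-1.09). The members' median was -0.14 and that of all genes -0.01. All 5 subunits of the pyruvate dehydrogenase complex were below 0 here, between -0.11 for Dld and -0.89 for Pdha1, against 4882 of all 9590 genes. The same subunits were not all lower in overexpressing cells, with 3 above 0 and 2 below, against 4656 of all genes below 0. In overexpressing cells 3 members were higher and 1 lower, against 5.79% and 6.07%. Higher were Me2 (3.19), Idh3b (1.55) and Idh3a (1.39), and Aco1 (-1.09) was lower. With a pseudocount of 0.1 FPKM 3 were lower, with Idh2 and Me1 joining. The members' median was -0.06 and that of all genes 0.004.

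Between the 2 cell types, whose withdrawal differences share no library, 15 members were lower after withdrawal in both, against 31.6% of all genes, and 9 were higher in both, against 31.2%. The 15 hold Cs, Aco1, Idh1, Idh2, Ogdh and the 4 succinate dehydrogenase subunits, and the 9 hold Idh3a, Idh3b, Pdk1, Pdk3, Mdh1 and Pcx. Me2 was the single member at least 2-fold different in opposite ways, against 1.03%. Limma called 0 members and 0% of all genes for withdrawal at an adjusted p of 0.05. Unadjusted p was under 0.05 for 3 members, against 12.0% of all genes. These were Idh3b with an estimate of 1.51 ± 0.077 and an adjusted p of 0.324, Got1 with -0.29 ± 0.080 and 0.413, and Idh2 with -0.69 ± 0.19 and 0.413 (SE, limma, 4 libraries).

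At 40 days without LIF, a group present for overexpressing cells alone, the members were compared with both other libraries of these cells. These comparisons share the 40 day library and are not independent. Against culture with LIF, 3 members were at least 2-fold higher and 3 lower, against 14.0% and 8.31% of all genes. Higher were Pck2 (1.82), Suclg2 (1.44) and Idh3b (1.44), and lower were Got2 (-1.31), Ogdh (-1.28) and Aco1 (-1.26). The members' median was -0.12, while that of all genes was 0.08. With a pseudocount of 0.1 FPKM the count was 10 in place of 6, with Pdp1, Me1 and Me2 joining as higher and Pdk4 as lower. Pdp1, at a mean of 1.02 FPKM, passed the filter only through its 40 day value of 1.95 FPKM, so its place here is partly fixed by the filter. Pdk4 passed narrowly, at a mean of 1.07 FPKM. Against 24 hour withdrawal, 3 members were higher and 4 lower, against 12.1% and 5.78%. Higher were Me1 (1.83), Pck2 (1.52) and, just past the threshold, Suclg2 (2.29-fold in FPKM), and lower were Me2 (-2.25), Idh3a (-1.56), Ogdh (-1.24) and Got2 (-1.13). On the log2 scale Suclg2 came to 0.81 under quantile normalization and 0.94 under median-ratio scaling, below 2-fold, and Me1 to 3.13 with a pseudocount of 0.1 FPKM. The summed endoderm markers, at 143 FPKM, move with the 40 day library in both comparisons, and their part was not tested.

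The steps from LIF to 24 hour withdrawal and on to 40 days share the 24 hour library, so the next counts only describe these 3 libraries. In that order 15 of 37 members in overexpressing cells were lower at each step, against 19.0% of all genes. They include Cs, Aco1, Idh1, Ogdh, Sucla2, Sdhb, Sdhc, Sdhd, Got1 and Got2. Another 8 members were higher at each step, against 24.8%, among them Dlat, Dlst, Fh1, Suclg2 and Pck2. The 8 also include Pdp1, which passed the filter only through its 40 day value. Quantile normalization gave 13 and 7, without Sdhb and Got1 among the first and Pdk3 among the second. The spread of these members around all genes is drawn in the plot of members beside the background.

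**Figure D4:**
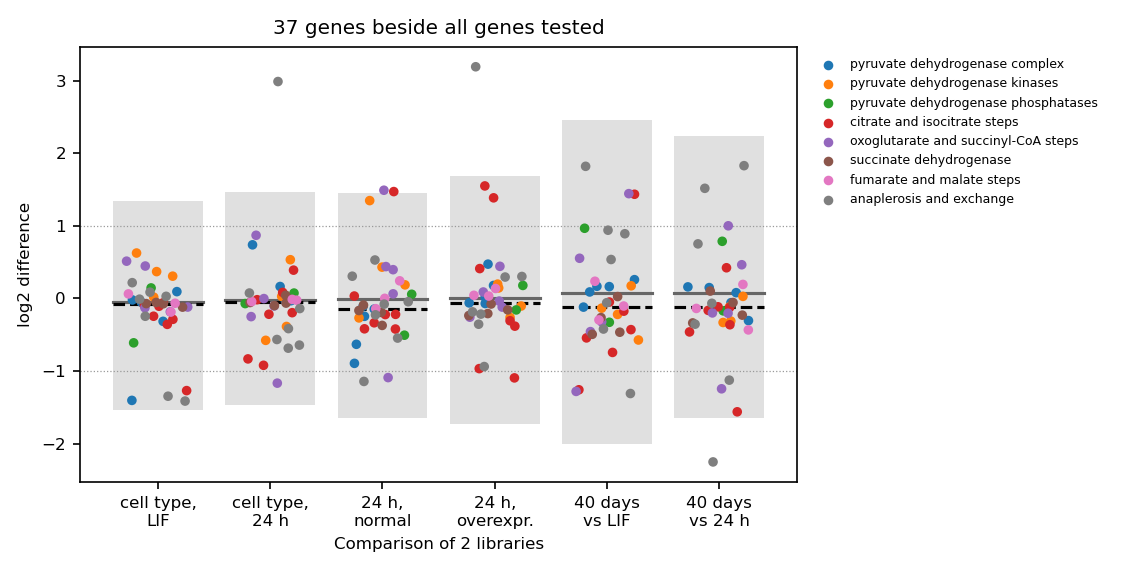
Differences of log2(FPKM + 1) of 37 genes (points, coloured by role) in 6 comparisons, beside all 9590 genes tested, whose median is the solid line and whose middle 95% is the grey band. The dashed line is the members' median, which lies between -0.14 and -0.04, and Me2 lies outside the band in 3 comparisons.

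Genes next to these reactions were taken from a list of 34, of which 33 reached a mean of 1 FPKM. The mitochondrial pyruvate carrier subunits Mpc1 and Mpc2 stood between 1.63 and 2.57 FPKM and between 8.53 and 13.8 FPKM. With LIF, 2 of the 33 were at least 2-fold higher in overexpressing cells and 1 lower, against 4.11% and 5.32% of all genes. After withdrawal 3 were higher and 2 lower, against 4.19% and 5.18%. For withdrawal in normal cells 2 were higher and 3 lower, against 4.62% and 5.51%, and in overexpressing cells 0 and 3, against 5.79% and 6.07%. At 40 days, 2 were higher and 1 lower than with LIF, against 14.0% and 8.31%, and 3 higher and 1 lower than after withdrawal, against 12.1% and 5.78%. These counts include pairs in which Sdhaf2 or Gpt is listed at 0.

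Gpt2, the mitochondrial alanine aminotransferase that links pyruvate with glutamate, stood between 13.8 and 19.3 FPKM in 4 libraries and at 66.7 FPKM at 40 days. Slc25a22, a mitochondrial glutamate carrier, stood at 8.87, 7.83 and 8.60 FPKM in both libraries with LIF and in normal cells after withdrawal, and at 3.03 and 2.87 FPKM in overexpressing cells after withdrawal and at 40 days. Those are the libraries in which Aco1 was low. Pdpr, the regulatory subunit of the phosphatase, read 1.32 FPKM in normal LIF culture and between 5.47 and 6.91 FPKM elsewhere. Lias, which makes the lipoate cofactor of Dlat and Dlst, stood at 8.87, 23.5, 10.3, 7.25 and 22.4 FPKM. It was high in overexpressing cells with LIF and at 40 days, where Idh3a was low. How many of all genes share the pattern of Idh3a or of Aco1 was not counted, and no link with Lias or Slc25a22 was tested. Ldhb, a lactate dehydrogenase subunit, read 20.6, 12.4, 44.2, 22.6 and 23.1 FPKM, highest in normal cells after withdrawal. The succinate dehydrogenase assembly factor Sdhaf3 read 5.04 and 1.38 FPKM in the normal libraries with LIF and after withdrawal, and 10.6 to 11.7 FPKM in the overexpressing libraries. Acss1, a mitochondrial acetyl-CoA synthetase, stood at 0.879 and 3.98 FPKM after withdrawal in normal and overexpressing cells. Slc25a10, the dicarboxylate carrier, stood at 2.36 FPKM in overexpressing cells after withdrawal and 0.417 FPKM at 40 days. The assembly factor Sdhaf2 read 9.03 FPKM in normal LIF culture, 1.32 FPKM in overexpressing LIF culture, 2.55 FPKM in normal cells after withdrawal and 9.62 FPKM at 40 days, and was listed at 0 in overexpressing cells after withdrawal. Its value was thus 6.86-fold lower in overexpressing than in normal cells with LIF. Gpt was listed at 0 in normal cells after withdrawal and stood between 2.13 and 2.49 FPKM elsewhere.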

How the data were processed

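Libraries of mRNA were prepared using Illumina TruSeq reagents, per the labels' protocols. Whether these reagents kept the strand of the RNA was not checked here. The authors deposited FPKM for 28698 RefSeq transcripts, made with TopHat2 2.0.7 and Cufflinks 2.0.2 on mm9, per the submitters' processing notes. The sources used here do not give the annotation or the handling of fragments with several matches. FPKM is scaled for length and depth, so no count model was run. Symbols came from RefSeq accessions listed for GRCm38.p6 (28066 transcripts matched, 632 did not), and FPKM was summed per gene. Genes with a hyphen in any cell, 337 in all and none of the members, were left out. Differences were taken on log2(FPKM + 1) between 2 libraries, for 9590 genes with a mean of at least 1 FPKM, and counted past 2-fold. This scale understates the change of low genes. Limma 3.58.1 in R 4.3.3 (lmFit, eBayes with trend) used 4 libraries with cell type and culture as terms and Benjamini-Hochberg adjustment over all genes. The script was tested on simulated data with known changes and no interaction of cell type and culture. That test therefore does not show the power of the fit in these data. An exact 0 in a library can be a failed estimate and is given as listed at 0. Transcripts were aligned to NCBIM37 (mm9) with minimap2 2.31-r1302. Gene positions are those of GENCODE vM1. The members and gene lists were chosen with earlier results of these data known. Named in full were members at least 2-fold different in any comparison with no 0 in that pair, members listed at 0 in a library, the kinases and phosphatases, and the highest member of each functional group, with other members by range. Of 34 neighbouring genes, those at least 2-fold different with no 0 in that pair were named, besides Mpc1 and Mpc2, and 1 gene the rule names is not reported here. Gpt, whose pairs past 2-fold include a 0, was named after its values were seen. The alternatives were another pseudocount, no filter, quantile normalization, median-ratio scaling, the highest transcript of a gene, and genes above 0 in every library.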

Additional observations from a re-analysis of the deposited data

Results flagged for a closer look

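Me2 was set apart because the same contrast gave opposite directions in 2 groups, each at least 2-fold. Overexpressing cells differed from normal cells by -1.35 with LIF and by 2.99 after 24 hour withdrawal, on the log2(FPKM + 1) scale. Withdrawal in turn differed from LIF by -1.14 in normal cells and by 3.19 in overexpressing cells. Both pairs of values rest on the same 4 libraries, with 1 library per group, so the difference between groups was not tested. The library of overexpressing cells after withdrawal held about 3322 fragments of Me2 by estimate, and the other 3 held 328 to 959.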

How the results depend on the processing

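For each comparison 6 alternatives were run: a pseudocount of 0.1 FPKM, no filter, quantile normalization, median-ratio scaling, the highest transcript of a gene only, and genes above 0 in every library only. A pseudocount of 0.1 FPKM raised the count of members at least 2-fold different from 2 to 4 for cell type after withdrawal and from 6 to 10 for 40 days against LIF. The other total counts stayed within 1.5 times, but for withdrawal in overexpressing cells that pseudocount raised the members at least 2-fold lower from 1 to 3. None of the 28 differences past 2-fold reversed under any of these, and Suclg2 at 40 days against withdrawal was the single 1 to come below 2-fold, under both scalings. Limma called 0 members under all of them, but it also called 0 of all genes under each, so this count cannot show stability. The median of all genes stayed between -0.05 and 0.09 (log2) over settings. No paired analysis was possible because each group has 1 library and the labels give no replicate numbers. With 1 library a group no library can be left out, and the spread between cultures of a group is unknown.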
